A study of Mus musculus with 10 samples.

Results

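Receptors for serotonin, noradrenaline and adrenaline, dopamine, histamine and acetylcholine were read out in the lumbar spinal cord of mice given paclitaxel or vehicle. Membership was set by gene symbol, as every listed gene of the serotonin (Htr), adrenergic (Adra, Adrb), dopamine (Drd), histamine (Hrh), muscarinic (Chrm) and nicotinic (Chrn) receptor families. They number 53 of the 24411 genes listed, of which 14 were serotonin, 9 adrenergic, 5 dopamine, 4 histamine, 5 muscarinic and 16 nicotinic receptor genes. The series holds 5 libraries of paclitaxel-treated cord and 5 of vehicle-treated cord, named here by group and replicate number. Paclitaxel is a microtubule-stabilising cancer drug that causes a painful peripheral neuropathy, the condition this mouse series models. Neither the strain, sex and age of the animals nor the dose and time of treatment is given in the labels. Nor do the labels say whether the libraries of a group came from separate animals, so p-values measure the spread between these samples only.

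Serotonin and noradrenaline reach the cord through axons that descend from the brainstem, and dopamine mainly through axons from the hypothalamus. These monoamines can either damp or raise the relay of pain signals in the dorsal horn. Acetylcholine is made inside the cord, by motor neurons and by interneurons. Most of these receptors are G protein-coupled. Gi-coupled receptors lower cyclic AMP and open potassium channels, Gs-coupled receptors raise cyclic AMP, and Gq-coupled receptors release calcium through phospholipase C. The nicotinic receptors and the serotonin receptors built from Htr3a and Htr3b subunits are instead ion channels opened directly by the transmitter.

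Counts were obtained for 50 of the 53 genes, and 29 passed the filter on low counts and were tested. The gene with the highest level was Htr2c, and none of the 29 tested genes passed the test between paclitaxel and vehicle cord. In edgeR's quasi-likelihood test 0 of 29 passed an adjusted p of 0.05, where 0% of all 13287 tested genes passed. At an unadjusted p under 0.05 there was 1 of 29, Htr2c, against 6.07% of all tested genes. DESeq2 and limma-voom also called 0 of the 29. The median log2 fold change of paclitaxel over vehicle was 0.0024 over the 29 genes and -0.0027 over all tested genes, with 15 of the 29 higher and 14 lower in value. That split ran from 12 to 16 higher over all settings, and was 12 higher and 17 lower with sample quality weights and without paclitaxel replicate 2. The median absolute log2 fold change was 0.096 for the receptor genes and 0.078 for all tested genes, at a median level of 11.2 and 29.7 counts per 1e6 mapped counts (CPM). The libraries of both groups overlapped in all 29 genes, while they did not overlap in 1.09% of all tested genes. The 95% interval lay within a 2-fold change either way for 29 of 29 genes, within 1.5-fold for 20 and within 1.25-fold for 7. For all tested genes these shares were 97.9%, 86.7% and 55.8%. Because whole cord was used, fewer cells of a type and less RNA per cell cannot be told apart in any of these values.

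**Figure D1:**
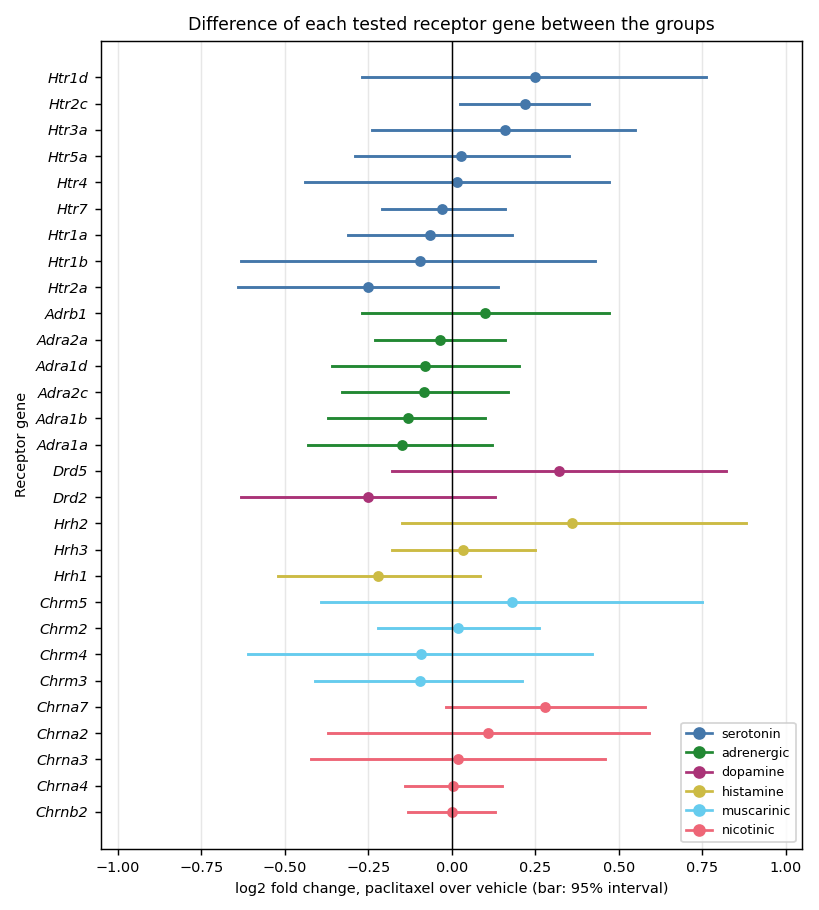
Log2 fold change of paclitaxel over vehicle (x axis) for the 29 tested receptor genes (y axis), with points for the estimate, bars for the 95% interval and colours for the family. The interval includes 0 for every gene except Htr2c, whose interval runs from 0.025 to 0.41, and no gene passed the adjusted threshold.

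Library totals were 3676259 to 5432072 counts for paclitaxel and 4585899 to 7791594 for vehicle. A count of 3 corresponded to between 0.385 and 0.816 CPM, so genes with few counts carry large counting error. Some libraries stood apart. In paclitaxel replicate 3 the mean log2 deviation from the vehicle mean was 2.39 for 6 glucocorticoid response genes. That list was taken from an earlier account of these data. There the deviation was -0.63 for endothelial markers and -0.40 for oligodendrocyte precursor markers. It was -0.63 for smooth muscle and pericyte markers and -0.61 for markers of meninges and fibroblasts. In vehicle replicate 4 it was 0.78 for markers of meninges and fibroblasts, and in vehicle replicate 5 it was 1.14 for the glucocorticoid response genes. For blood markers it ran from -1.23 (paclitaxel replicate 3) to 1.02 (paclitaxel replicate 1), and from -1.29 (vehicle replicate 1) to 0.68 (vehicle replicate 2). Over the 29 receptor genes, the median deviation was highest in paclitaxel replicate 2, at 0.11, with 24 genes above the vehicle mean. It was lowest in paclitaxel replicate 5, at -0.10, with 19 genes below that mean, and ran from -0.067 to 0.067 in the vehicle libraries. For the label of spinal cord, 8 of 8 markers of excitatory and 9 of 9 of inhibitory neurons had counts. Their summed levels were 295 to 348 CPM and 770.5 to 903 CPM in paclitaxel libraries, and 279 to 331 CPM and 810.3 to 870.3 CPM in vehicle libraries. Markers of sensory ganglion neurons summed to 4.44 to 6.28 CPM in paclitaxel and 4.02 to 6.51 CPM in vehicle libraries, with Mrgprd and Mrgprx1 at 0.

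**Figure D2:**
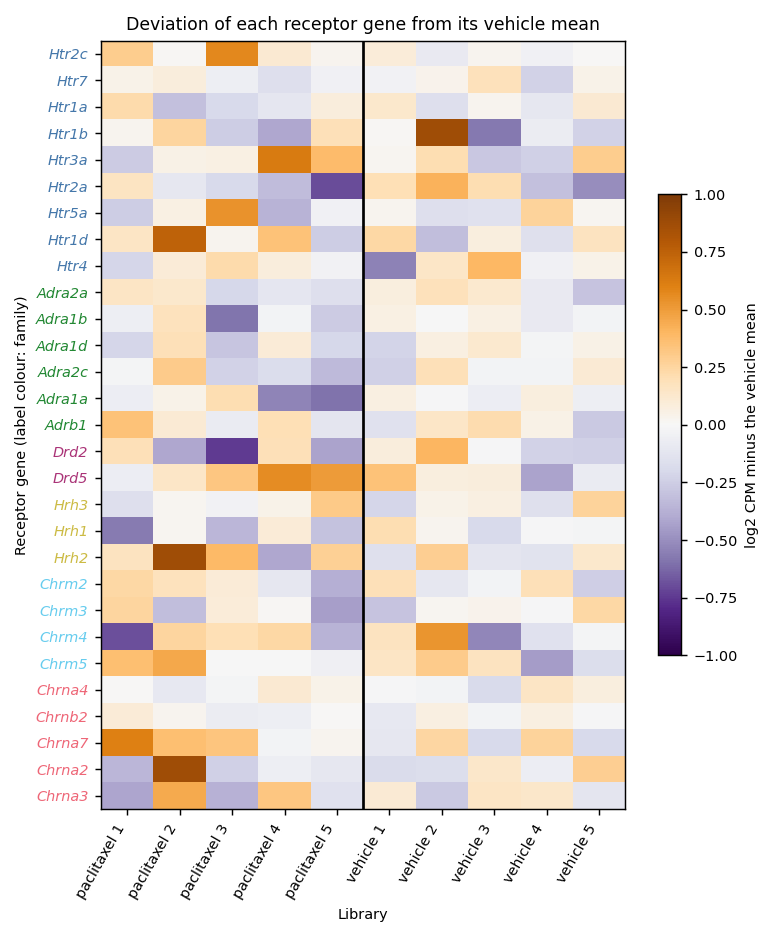
Log2 CPM of each tested receptor gene minus its vehicle mean (colour), by library (columns, paclitaxel left of the black line and vehicle right of it), with genes in rows and label colours for the family. Deviations of both signs occur in both groups; paclitaxel replicate 2 has 24 of 29 genes above the vehicle mean and paclitaxel replicate 5 has 10.

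To compare genes with each other, CPM was divided by transcript length in kilobases. On this scale all 53 genes together summed to 171 ± 7.51 CPM per kilobase with paclitaxel and 169 ± 4.73 with vehicle (SD, n = 5 each). Serotonin receptors made up 34.4% ± 2.71 of that sum with paclitaxel and 32.8% ± 1.20 with vehicle. Adrenergic receptors made up 24.0% ± 2.18 with paclitaxel and 25.7% ± 1.13 with vehicle, and nicotinic subunits 22.6% ± 0.751 with paclitaxel and 22.2% ± 1.78 with vehicle. Histamine receptors accounted for 8.79% ± 1.26 with paclitaxel and 8.80% ± 0.868 with vehicle, muscarinic receptors for 7.25% ± 0.728 with paclitaxel and 7.41% ± 0.391 with vehicle, and dopamine receptors for 2.92% ± 0.553 with paclitaxel and 3.12% ± 0.525 with vehicle. The order of the family means was the same in both groups. In paclitaxel cord the spreads of adrenergic and nicotinic genes overlapped, as did those of histamine and muscarinic genes. Htr2c stood first among single genes, at 30.3 ± 5.25 CPM per kilobase with paclitaxel and 26.1 ± 1.23 with vehicle. Adra2a followed at 15.3 ± 1.82 with paclitaxel and 15.8 ± 2.03 with vehicle, and Chrna4 at 15.5 ± 0.833 with paclitaxel and 15.4 ± 1.35 with vehicle, so these neighbours lay within each other's spread. Chrnb2 (11.7 ± 0.581 paclitaxel, 11.7 ± 0.562 vehicle), Hrh3 (10.7 ± 1.34 paclitaxel, 10.4 ± 1.41 vehicle) and Htr7 (10.3 ± 0.683 paclitaxel, 10.5 ± 1.09 vehicle) came next, again with overlapping spreads.

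**Figure D3:**
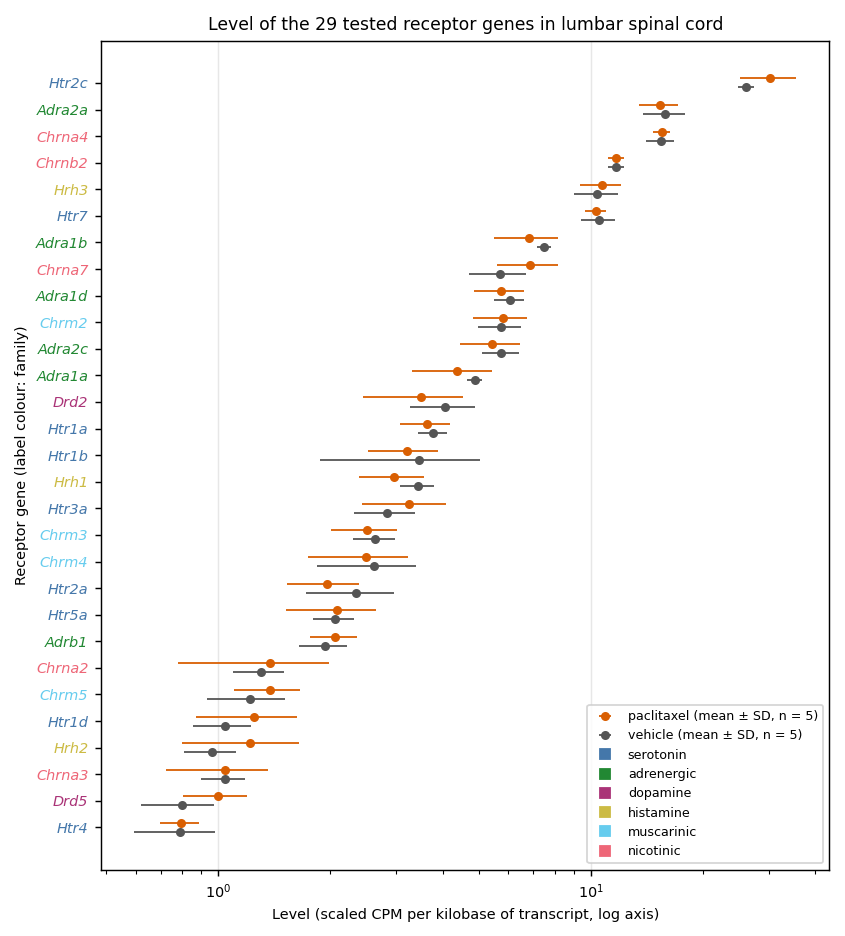
Level of the 29 tested receptor genes in scaled CPM per kilobase of transcript (log axis), with points for the mean and bars for the SD of 5 libraries, paclitaxel above vehicle in each row. Htr2c is the highest gene in both groups, at 30.3 and 26.1 CPM per kilobase in paclitaxel and vehicle cord, and Htr4 the lowest of the tested genes, at 0.793 and 0.789.

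The promoters of the receptor genes ranged from rich to poor in CpG dinucleotides, the sites at which mammalian DNA is methylated. RefSeq promoter windows (GRCm38.p6, 250 bases before to 50 after the start) were matched for 24 of the 29 tested and 16 of the 24 untested genes. The motif CG was counted, which reads the same on both strands. Windows of tested genes held a median of 16 CG (30 windows), those of untested genes 7 (19 windows) and those of all genes 7. At least 10 CG were found in 70.0% of the windows of tested genes, 47.4% of those of untested genes and 43.5% of those of all genes. The windows of all genes came from 27025 genes that were not limited to those past the filter on low counts. Some genes gave several windows. Whether the receptor genes differ from other genes that passed the filter was not tested. Shown here are the gene with the highest level, Htr2c (chrX:146962263-146962562, plus strand), the nicotinic subunit with the highest level per length, Chrna4 (chr2:181039128-181039427, minus strand), and the muscle subunit Chrng, which had no count (chr1:87205561-87205860, plus strand). Capitals mark CG.
Htr2c: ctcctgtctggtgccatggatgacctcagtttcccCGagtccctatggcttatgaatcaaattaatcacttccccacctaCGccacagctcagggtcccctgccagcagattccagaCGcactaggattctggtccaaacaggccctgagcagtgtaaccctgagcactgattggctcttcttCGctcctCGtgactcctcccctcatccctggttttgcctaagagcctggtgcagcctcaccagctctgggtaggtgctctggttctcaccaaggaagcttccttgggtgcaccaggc
Chrna4: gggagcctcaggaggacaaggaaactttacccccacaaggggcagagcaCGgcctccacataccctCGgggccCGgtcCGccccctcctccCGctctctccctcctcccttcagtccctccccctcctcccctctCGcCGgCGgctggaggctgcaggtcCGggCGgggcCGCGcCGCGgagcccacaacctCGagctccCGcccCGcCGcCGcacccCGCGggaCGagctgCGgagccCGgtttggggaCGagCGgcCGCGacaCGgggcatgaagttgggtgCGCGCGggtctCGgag
Chrng: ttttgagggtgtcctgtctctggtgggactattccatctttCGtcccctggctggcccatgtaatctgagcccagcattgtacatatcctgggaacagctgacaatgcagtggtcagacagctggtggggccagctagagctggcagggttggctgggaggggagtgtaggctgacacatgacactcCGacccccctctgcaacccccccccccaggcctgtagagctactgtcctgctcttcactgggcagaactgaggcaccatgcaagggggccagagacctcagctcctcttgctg
These windows held 5 CG in Htr2c, 33 in Chrna4 and 2 in Chrng, so the genes of highest level had both CpG-poor and CpG-rich windows.

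Among serotonin receptors, 9 of 14 genes were tested, and 0 passed in either direction (5 higher and 4 lower in value, with 3 to 6 higher over all settings, and a median log2 fold change of 0.017). Htr2c, on chromosome X from 146962464 to 147197277 (GRCm38), encodes a Gq-coupled receptor known in the cord for raising the excitability of motor neurons. It made up 51.4% ± 4.29 of the family's summed level per length with paclitaxel and 47.3% ± 2.24 with vehicle. Its level was 152, 125, 184, 134 and 126 CPM in paclitaxel replicates 1 to 5, and 132, 116, 126, 120.2 and 124 CPM in vehicle replicates 1 to 5. Each of the 5 paclitaxel values exceeded the vehicle mean of 124 CPM, replicate 3 by the most, while replicates 2 and 5 lay below the highest vehicle library, so the groups overlapped. On the log2 scale the fold change was 0.22 (SE 0.091), which is 1.16-fold (95% interval 1.02 to 1.33). It did not pass across all genes (edgeR unadjusted p = 0.0291, adjusted p = 0.792). Without paclitaxel replicate 3, the library with the glucocorticoid response score of 2.39, the log2 fold change of Htr2c was 0.11, and after a correction for GC content and length it was 0.14. Whether the difference comes from that library's other features was not tested. Htr2c is also abundant in choroid plexus epithelium. Of 8 markers of that tissue, 7 had counts and Otx2 was at 0, and they summed to 8.91 to 16.1 CPM in paclitaxel and 8.84 to 14.3 CPM in vehicle libraries. The highest of them was Kl, at 7.15 ± 1.62 CPM in paclitaxel and 5.87 ± 1.63 CPM in vehicle libraries. Of the 3 tested markers 2 were higher and 1 lower in value, and 0 passed. The log2 fold change was 0.29 (SE 0.21) for Kl and 0.28 (SE 0.28) for Slc4a5. For Clic6 it was -0.68 (SE 0.28; edgeR adjusted p = 0.792), opposite in direction to Htr2c. Ttr had only 2 counts over the paclitaxel and 3 over the vehicle libraries, and Kcnj13 0 with paclitaxel and 2 with vehicle. The part of that tissue in the Htr2c values was not tested.

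Htr2a, the other tested Gq-coupled serotonin receptor gene, lay in the opposite direction by value. It was at 14.3, 11.8, 11.0, 10.1 and 7.71 CPM in paclitaxel replicates 1 to 5, and at 14.6, 17.1, 14.7, 10.2 and 8.84 CPM in vehicle replicates 1 to 5. Only 1 paclitaxel library lay above the vehicle mean of 13.1 CPM, but vehicle replicates 4 and 5 were as low as the paclitaxel libraries. The log2 fold change of -0.25 (SE 0.19) did not pass (edgeR adjusted p = 0.831), and leaving out paclitaxel replicate 5 gave -0.13, vehicle replicate 2 gave -0.12 and vehicle replicate 5 gave -0.38. Htr7, a Gs-coupled receptor linked to descending pain control, was the next gene of the family per length, at 28.6 to 34.0 CPM in paclitaxel and 27.3 to 36.5 CPM in vehicle libraries. Its log2 fold change of -0.028 (SE 0.089) had an interval from -0.21 to 0.16. The Gi-coupled Htr1a was at 16.2 ± 2.49 CPM with paclitaxel and 16.9 ± 1.52 with vehicle (SD, n = 5 each), and the Gi-coupled Htr5a at 11.2 ± 3.02 with paclitaxel and 11.1 ± 1.39 with vehicle. Lower levels were found for the channel subunit Htr3a (6.61 ± 1.67 CPM paclitaxel, 5.77 ± 1.08 vehicle) and the Gs-coupled Htr4 (3.70 ± 0.452 CPM paclitaxel, 3.68 ± 0.904 vehicle). The Gi-coupled receptors targeted by triptans were also low, with Htr1b at 4.08 ± 0.86 CPM in paclitaxel and 4.41 ± 2.02 CPM in vehicle libraries and Htr1d at 3.27 ± 0.986 CPM with paclitaxel and 2.73 ± 0.482 with vehicle. In edgeR's test these 6 genes had adjusted p-values from 0.874 to 0.995. Htr1b shares 852 exonic bases with a transcript on the other strand, D430036J16Rik, which had 0.44 ± 0.3 CPM in paclitaxel and 0.412 ± 0.149 CPM in vehicle libraries, so its counts are uncertain.

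Adrenergic receptors were led by Adra2a, the Gi-coupled receptor through which clonidine and descending noradrenaline inhibit dorsal horn transmission (chromosome 19, 54045259 to 54048982). Of 9 genes 6 were tested, and 0 passed in either direction, with 1 higher and 5 lower in value. That split was 4 higher and 2 lower once GC content and length were corrected for, and 2 higher and 4 lower without paclitaxel replicate 3 or without vehicle replicate 2. Adra2a was at 62.6, 61.6, 48.6, 52.1 and 50.5 CPM in paclitaxel replicates 1 to 5, and at 59.3, 63.9, 61.4, 53.0 and 45.9 CPM in vehicle replicates 1 to 5. High and low libraries occurred in both groups. Adra2a had a log2 fold change of -0.036 with SE 0.094 and an interval from -0.23 to 0.16 (edgeR adjusted p = 0.963), which turned to 0.030 after that correction, 0.0097 when paclitaxel replicate 3 was left out and 0.017 when vehicle replicate 2 was left out. The related Adra2c was at 18.7 ± 3.46 CPM in paclitaxel and 19.8 ± 2.24 CPM in vehicle libraries.

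The Gq-coupled adrenergic receptors are excitatory, and 3 of 3 were detected at levels that allowed a test. Adra1b was at 23.2, 27.4, 15.9, 23.7 and 20.2 CPM in paclitaxel replicates 1 to 5, and at 25.3, 24.1, 25.3, 22.8 and 23.7 CPM in vehicle replicates 1 to 5. The paclitaxel libraries spread on both sides of a tight vehicle group, with replicate 3 the lowest. Its log2 fold change was -0.13 (SE 0.11; edgeR adjusted p = 0.848), -0.035 without paclitaxel replicate 3 and -0.23 without paclitaxel replicate 2. Adra1a was at 17.1, 18.5, 20.8, 12.3 and 11.7 CPM in paclitaxel replicates 1 to 5, and at 18.8, 17.8, 17.2, 18.9 and 17.2 CPM in vehicle replicates 1 to 5. Here paclitaxel replicates 4 and 5 were low and replicate 3 was the highest of all libraries. Its log2 fold change was -0.15 (SE 0.13; edgeR adjusted p = 0.852), running from -0.26 without paclitaxel replicate 3 to -0.047 without paclitaxel replicate 5. Adra1b had an SD of 4.28 CPM in paclitaxel and 1.08 CPM in vehicle libraries, and Adra1a one of 3.95 CPM in paclitaxel and 0.841 CPM in vehicle libraries, a difference in spread that was not tested. Adra1d, which shares 147 exonic bases with an antisense transcript, was at 10.9 ± 1.69 CPM with paclitaxel and 11.5 ± 1.08 with vehicle. The Gs-coupled Adrb1, the beta receptor of highest level, was at 6.07 ± 0.882 CPM in paclitaxel and 5.68 ± 0.832 CPM in vehicle libraries.

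Dopamine receptors had the lowest summed level of the families, and 2 of 5 genes were tested, with 0 passing. Drd2, Gi-coupled and known in the cord as a target of dopamine from the hypothalamus, was at 11.7, 7.58, 5.94, 11.7 and 7.52 CPM in paclitaxel replicates 1 to 5. In vehicle replicates 1 to 5 it was at 10.8, 13.6, 10.1, 8.68 and 8.59 CPM. Paclitaxel replicates 2, 3 and 5 were below every vehicle library and replicates 1 and 4 above the vehicle mean. The log2 fold change of -0.25 (SE 0.18) did not pass (edgeR adjusted p = 0.831), while it was -0.12 without vehicle replicate 2 and -0.13 without paclitaxel replicate 3. Drd5, Gs-coupled, was at 2.34, 2.77, 3.18, 3.82 and 3.67 CPM in paclitaxel replicates 1 to 5, and at 3.25, 2.62, 2.64, 1.74 and 2.31 CPM in vehicle replicates 1 to 5. These values rest on 8 to 20 counts per library. Its log2 fold change was 0.32 (SE 0.24; edgeR adjusted p = 0.831), and 4 of 5 paclitaxel libraries lay above the vehicle mean. Drd5 shares 1531 exonic bases with an antisense transcript that is not in the count table, so some of its counts may belong to that transcript.

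Histamine receptors were dominated by Hrh3, a Gi-coupled receptor that restrains transmitter release from nerve endings. It made up 71.7% ± 3.78 of the family's summed level per length with paclitaxel and 70.1% ± 3.78 with vehicle. Hrh3 was at 25.1, 28.5, 27.4, 28.9 and 34.9 CPM in paclitaxel replicates 1 to 5, and at 24.0, 28.8, 29.3, 25.2 and 33.7 CPM in vehicle replicates 1 to 5. The groups covered almost the same range. Its log2 fold change was 0.033 (SE 0.11; edgeR adjusted p = 0.972), and it turned to -0.047 without paclitaxel replicate 5 and to -0.016 without vehicle replicate 1. Hrh1, the Gq-coupled receptor blocked by classical antihistamines, was at 7.27, 11.1, 8.49, 11.7 and 8.81 CPM in paclitaxel replicates 1 to 5. In vehicle replicates 1 to 5 it was at 12.7, 11.2, 9.46, 10.9 and 10.8 CPM. Paclitaxel replicates 1, 3 and 5 lay below all vehicle libraries and replicates 2 and 4 within them. The log2 fold change was -0.22 (SE 0.15; edgeR adjusted p = 0.819), and -0.14 without paclitaxel replicate 1. Hrh2, Gs-coupled, was at 3.05, 5.18, 3.61, 1.91 and 3.30 CPM in paclitaxel replicates 1 to 5, and at 2.35, 3.32, 2.42, 2.39 and 2.95 CPM in vehicle replicates 1 to 5. Paclitaxel libraries were both the highest and the lowest of the 10. The Hrh2 values rest on 7 to 28 counts per library. Here the log2 fold change was 0.36 (SE 0.25; edgeR adjusted p = 0.819), and 0.16 without paclitaxel replicate 2. Of 4 genes 3 were tested, and 0 passed. Hrh3 shares 349 and Hrh2 145 exonic bases with antisense transcripts that are not in the count table.

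Muscarinic receptors were led by Chrm2, a Gi-coupled receptor that sits on motor neurons opposite cholinergic terminals and takes part in cholinergic pain inhibition. Of 5 genes 4 were tested, and 0 passed (2 higher and 2 lower in value). Chrm2 was at 38.2, 36.6, 34.6, 30.0 and 24.8 CPM in paclitaxel replicates 1 to 5, and at 37.1, 30.0, 31.7, 36.9 and 27.2 CPM in vehicle replicates 1 to 5. The ranges nearly coincided. Chrm2 had a log2 fold change of 0.019 with SE 0.11 and an interval from -0.22 to 0.26 (edgeR adjusted p = 0.988). Leaving out paclitaxel replicate 1 (-0.035) or 2 (-0.025) or vehicle replicate 2 (-0.004) or 5 (-0.047) turned it negative, as did sample weights (-0.0083) and correcting for GC content and length (-0.056). Chrm3, Gq-coupled, was at 13.6, 9.06, 12.1, 11.5 and 8.26 CPM in paclitaxel replicates 1 to 5, and at 9.22, 11.5, 11.7, 11.3 and 13.5 CPM in vehicle replicates 1 to 5. High and low libraries occurred in both groups (log2 fold change -0.095, SE 0.15; edgeR adjusted p = 0.939). The value for Chrm3 was -0.18 without paclitaxel replicate 1, -0.16 without vehicle replicate 1, -0.030 without paclitaxel replicate 2, -0.0036 without paclitaxel replicate 5 and -0.017 without vehicle replicate 5. Chrm5, also Gq-coupled, was at 2.58, 2.77, 1.91, 1.91 and 1.83 CPM in paclitaxel replicates 1 to 5, and at 2.17, 2.45, 2.20, 1.30 and 1.67 CPM in vehicle replicates 1 to 5. Here the log2 fold change of 0.18 (SE 0.28; edgeR adjusted p = 0.937) was smaller than its error. The Chrm5 values rest on 6 to 15 counts per library. Left-out libraries took Chrm5 to 0.071 (paclitaxel replicate 2), 0.086 (vehicle replicate 4), 0.11 (vehicle replicate 5) and 0.28 (vehicle replicate 2). Chrm2 shares 142 exonic bases with 9330158H04Rik on the other strand. The Gi-coupled Chrm4 was at 3.58 ± 1.08 CPM with paclitaxel and 3.77 ± 1.12 with vehicle.

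**Figure D4:**
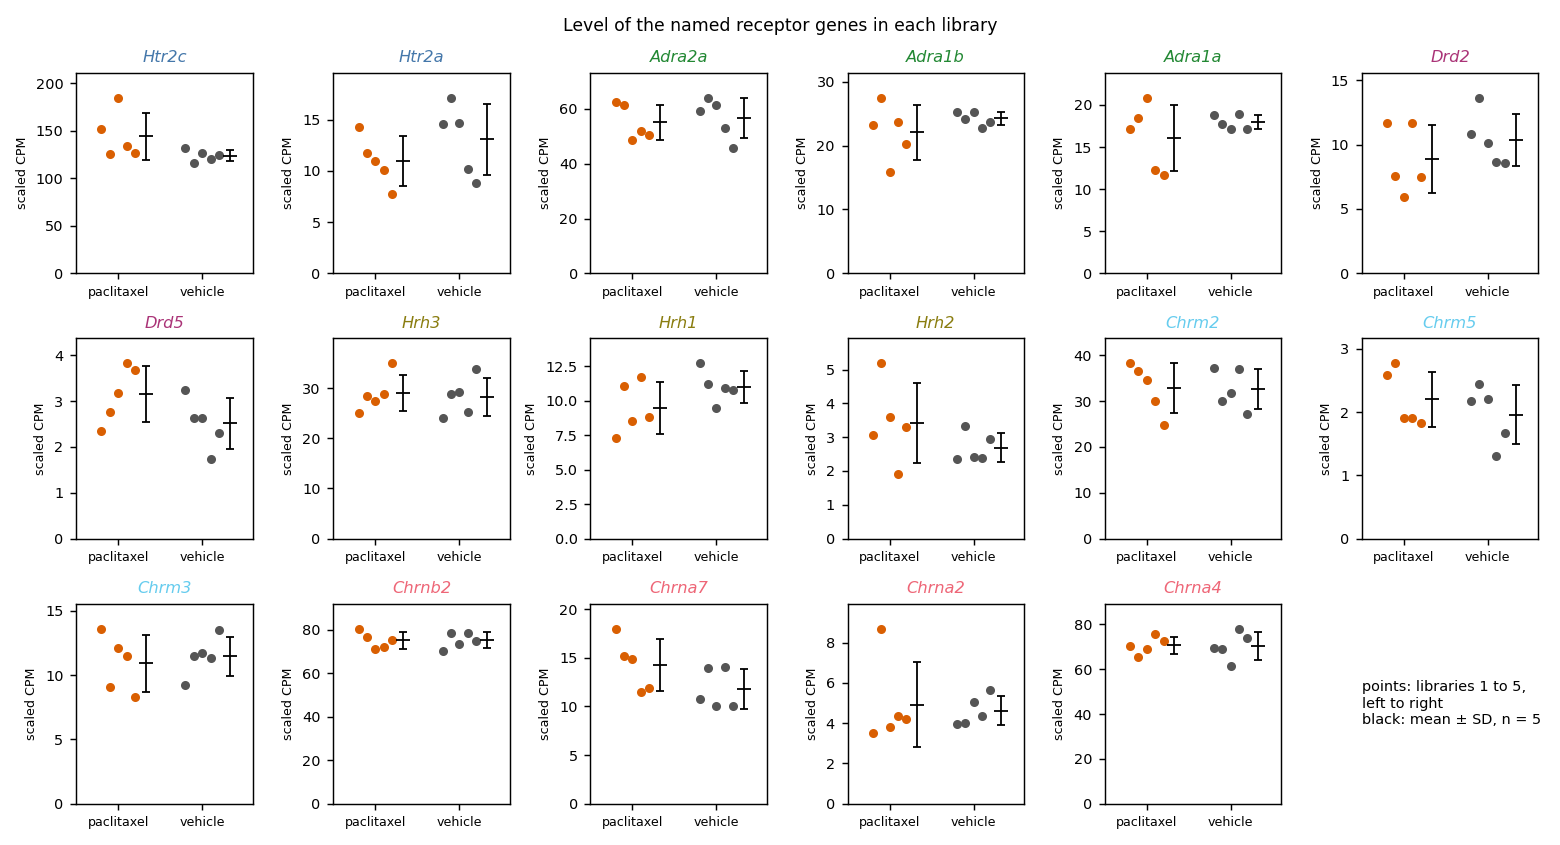
Scaled CPM of 17 receptor genes in each library (points, replicates 1 to 5 from left to right, paclitaxel left of vehicle), with the mean and SD of 5 libraries in black. The groups overlap in every panel, and Chrna2 in paclitaxel replicate 2, at 8.69 CPM, stands clear of the other libraries.

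Nicotinic receptors are assembled from 5 subunits, and the subunits of highest level in the cord were neuronal ones. Chrna4 and Chrnb2, whose products form the common high-affinity receptor of the brain and cord, made up 40.4% ± 3.30 and 30.5% ± 0.597 of the family's summed level per length with paclitaxel. In vehicle cord Chrna4 made up 41.2% ± 1.90 and Chrnb2 31.4% ± 1.54. Chrna7, which forms receptors of a single subunit with high calcium permeability, followed at 17.8% ± 2.71 with paclitaxel and 15.1% ± 1.76 with vehicle. Of 16 genes 5 were tested, and 0 passed.

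The 2 groups covered similar ranges in Chrnb2 and Chrna4. Chrnb2 (chromosome 3, 89753448 to 89764632) was at 80.4, 76.5, 71.1, 72.0 and 75.0 CPM in paclitaxel replicates 1 to 5, and at 70.1, 78.6, 73.5, 78.6 and 74.6 CPM in vehicle replicates 1 to 5. Chrna4 (chromosome 2, 181022311 to 181043579) was at 70.5, 65.6, 69.2, 75.9 and 72.5 CPM in paclitaxel replicates 1 to 5, and at 69.6, 69.0, 61.6, 78.1 and 73.8 CPM in vehicle replicates 1 to 5. The log2 fold change of Chrnb2 was -0.00013 (SE 0.064) and that of Chrna4 0.0024 (SE 0.071), and the sign of both changed between settings. Their intervals ran from 0.912 to 1.10-fold for Chrnb2 and from 0.905 to 1.11-fold for Chrna4. Chrnb2 shares 1365 exonic bases with Adar on the other strand, a gene at 257 ± 11.4 CPM in paclitaxel and 262 ± 6.57 CPM in vehicle libraries. Whether the counting used strand is not given in the sources used here, so part of the Chrnb2 count may come from Adar.

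Chrna7 had the lowest p of the nicotinic genes. It was at 18.0, 15.2, 14.9, 11.5 and 11.9 CPM in paclitaxel replicates 1 to 5, and at 10.8, 14.0, 10.1, 14.1 and 10.1 CPM in vehicle replicates 1 to 5. Paclitaxel replicates 1, 2 and 3 were above every vehicle library, and replicates 4 and 5 were within the vehicle range. On the log2 scale the fold change was 0.28 (SE 0.14), which is 1.21-fold (95% interval 0.988 to 1.49), and it did not pass (edgeR adjusted p = 0.8). Left-out libraries moved Chrna7 between 0.19 and 0.36. Chrna2, known as a marker of the Renshaw cells that inhibit motor neurons, was at 3.52, 8.69, 3.82, 4.37 and 4.22 CPM in paclitaxel replicates 1 to 5, and at 3.98, 4.02, 5.06, 4.34 and 5.64 CPM in vehicle replicates 1 to 5. Paclitaxel replicate 2 alone was high, and without it the log2 fold change of 0.11 (SE 0.23; edgeR adjusted p = 0.955) turned to -0.22. Chrna3, a subunit best known from autonomic ganglia, was at 4.55 ± 1.38 CPM with paclitaxel and 4.54 ± 0.621 with vehicle.

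The 24 genes left untested had at most 1.86 CPM on average over all libraries. Among nicotinic genes these included the muscle subunits Chrna1 (14 counts over the paclitaxel libraries and 21 over the vehicle libraries), Chrnb1 (29 paclitaxel, 50 vehicle), Chrne (1 paclitaxel, 1 vehicle), Chrnd and Chrng. Chrnd, Chrng and the cochlear hair cell subunit Chrna9 had no count in any library, which allows a level of up to 0.128 CPM over the paclitaxel and 0.106 CPM over the vehicle libraries together (3 counts, counting error only). Chrna10, the partner of Chrna9, had 4 counts over 3 of 5 paclitaxel libraries and 0 over vehicle libraries, and it shares 1025 exonic bases with Art1. Of the other ganglionic subunits, Chrna5 had 18 counts with paclitaxel and 32 with vehicle and Chrnb4 27 with paclitaxel and 25 with vehicle. Chrna6 and Chrnb3, known from dopamine neurons and retina, had 24 and 8 counts with paclitaxel and 20 and 9 with vehicle. Among the monoamine receptors, Gs-coupled ones included Htr6 (29 counts paclitaxel, 48 vehicle), Adrb3 (40 paclitaxel, 54 vehicle) and Drd1 (26 paclitaxel, 27 vehicle). The Gi-coupled Htr5b had 21 counts with paclitaxel and 32 with vehicle, and Htr1f 28 with paclitaxel and 28 with vehicle. The Gq-coupled Chrm1 had 28 counts with paclitaxel and 39 with vehicle. Fewer than 10 counts per group were found for Adra2b (8 paclitaxel, 9 vehicle), Drd4 (3 paclitaxel, 6 vehicle), Drd3 (4 paclitaxel, 3 vehicle), Htr2b (2 paclitaxel, 1 vehicle), Htr3b (1 paclitaxel, 1 vehicle) and Hrh4 (1 paclitaxel, 0 vehicle). These 24 genes were left out of the fit by the filter on low counts, which does not show that the groups were alike. Their count sums are not scaled for depth, and library totals averaged 4705365 counts for paclitaxel and 5657619 for vehicle. The sums of the 2 groups are therefore not directly comparable.

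Grouped by signalling, the Gs-coupled, Gi-coupled, Gq-coupled and channel genes were tested in 5 of 9, 10 of 16, 8 of 10 and 6 of 18 cases, and 0 passed in any class. The median log2 fold change was 0.10 for Gs-coupled, -0.050 for Gi-coupled, -0.11 for Gq-coupled and 0.064 for channel genes. Of the 8 tested Gq-coupled genes 6 were lower in value (Htr2a, Hrh1, Adra1a, Adra1b, Adra1d and Chrm3) and 2 higher (Htr2c and Chrm5), where 50.9% of all tested genes were lower. This split was 5 to 6 lower over all settings. Gi-coupled genes were 4 higher and 6 lower in value, with 2 to 5 higher over all settings, and channel genes 5 higher and 1 lower, with 3 to 6 higher over all settings. Among the 5 tested Gs-coupled genes 4 were higher in value (Hrh2, Drd5, Adrb1 and Htr4), with 3 to 5 higher over all settings, where 49.1% of all tested genes were higher.

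The genes that supply the transmitters also did not pass. All 7 genes of acetylcholine synthesis, transport and breakdown were tested, with 1 higher and 6 lower in value and 0 passing (median -0.064). Over all tested genes 50.9% were lower, and this split was not counted under other settings. The acetylcholine-degrading enzyme Ache was at 209 ± 13.9 CPM with paclitaxel and 222 ± 9.28 with vehicle (log2 fold change -0.086, SE 0.055; edgeR adjusted p = 0.813), and its log2 fold change was -0.050 without paclitaxel replicate 4. For its membrane anchor Prima1 the log2 fold change was -0.17 (SE 0.16), with -0.30 without paclitaxel replicate 2 and -0.077 without paclitaxel replicate 3. For the vesicular transporter Slc18a3 it was -0.10 (SE 0.13), with -0.17 without vehicle replicate 1 and 0.00025 without paclitaxel replicate 3. Of 24 genes of monoamine synthesis, transport and breakdown, 11 were tested, with 6 higher and 5 lower and 0 passing. Of the genes that mark monoamine cell bodies, Tph2 had 20 counts over the paclitaxel and 22 over the vehicle libraries, Slc6a4 had 1 with paclitaxel and 2 with vehicle, and Dbh had 2 with paclitaxel and 1 with vehicle. Higher counts were found for Th (123 paclitaxel, 147 vehicle), Slc18a2 (144 paclitaxel, 153 vehicle) and Hdc (49 paclitaxel, 39 vehicle). These sums are not scaled for depth, which was higher on average in the vehicle libraries. In scaled CPM, Th was at 5.16 ± 1.65 with paclitaxel and 5.05 ± 1.54 with vehicle. Slc18a2 was at 6.02 ± 1.18 CPM with paclitaxel and 5.30 ± 0.878 with vehicle, and Hdc at 2.05 ± 0.81 with paclitaxel and 1.41 ± 0.535 with vehicle. Fev, another marker, had 4 counts with paclitaxel and 17 with vehicle (0.181 ± 0.106 CPM paclitaxel, 0.623 ± 0.478 vehicle). Slc6a2 had 1 count with paclitaxel and 0 with vehicle. Together the 8 markers of monoamine neurons summed to 9.61 to 18.2 CPM in paclitaxel and 11.7 to 16.1 CPM in vehicle libraries. The decarboxylase Ddc, which makes serotonin and dopamine from their precursors, was at 12.4, 10.5, 28.4, 13.6 and 12.7 CPM in paclitaxel replicates 1 to 5, and at 10.3, 11.4, 8.80, 12.4 and 10.9 CPM in vehicle replicates 1 to 5. Paclitaxel replicate 3 alone was far above the rest, and without it the log2 fold change of 0.53 (SE 0.26; edgeR adjusted p = 0.8) was 0.19. For the reductase Spr, needed for the tetrahydrobiopterin cofactor, the log2 fold change was -0.11 (SE 0.080), and -0.067 without paclitaxel replicate 3.

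Partners and signalling proteins of the receptors gave the same count of 0 past the threshold. Of 14 genes for nicotinic receptor partners 11 were tested, with 7 higher and 4 lower in value. Lypd1 and Lynx1, membrane-anchored toxin-like proteins that dampen nicotinic receptors, had the lowest p. Lypd1 was at 25.1, 25.5, 29.5, 33.3 and 25.9 CPM in paclitaxel replicates 1 to 5, and at 32.0, 35.5, 31.2, 34.9 and 30.8 CPM in vehicle replicates 1 to 5. All paclitaxel libraries except replicate 4 were below the vehicle libraries (log2 fold change -0.25, SE 0.093; edgeR adjusted p = 0.792). Lynx1 was at 486 ± 49.4 CPM with paclitaxel and 538 ± 20.6 with vehicle (log2 fold change -0.15, SE 0.059; edgeR adjusted p = 0.792), and its log2 fold change was -0.083 without paclitaxel replicate 3. Lypd6b, of the same protein family, had a log2 fold change of 0.14 (SE 0.083). Of 27 genes for G proteins, adenylyl cyclases and phospholipases C 26 were tested, with 10 higher and 16 lower. The lowest p there belonged to the phospholipase Plcb3 (-0.22, SE 0.11), followed by the cyclases Adcy4 (-0.50, SE 0.26; -0.31 without vehicle replicate 5) and Adcy8 (-0.11, SE 0.071). Of 16 genes for receptor kinases, arrestins and regulators of G protein signalling 15 were tested, with 2 higher and 13 lower in value and a median of -0.034. Over all tested genes 50.9% were lower. The median absolute log2 fold change was 0.047 for this list and 0.078 for all tested genes. Splits of these lists were not counted under other settings. The kinase Grk5 (-0.34, SE 0.15), the arrestin Arrb2 (-0.18, SE 0.090) and Rgs2 (-0.081, SE 0.088; -0.13 without paclitaxel replicate 4 and -0.037 without paclitaxel replicate 2) had the lowest p. Of 12 potassium and pacemaker channel genes that these receptors modulate 11 were tested, with 4 higher and 7 lower, and Kcnq5 (0.20, SE 0.12) and Kcnj6 (-0.20, SE 0.15; -0.096 without vehicle replicate 4) had the lowest p. In edgeR's test the genes named from these 6 lists had adjusted p-values of at least 0.792.

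Markers of motor neurons, which carry several of these receptors, summed to 378 to 530.4 CPM in paclitaxel and 459.9 to 565 CPM in vehicle libraries, with counts for 8 of 8 markers. Their mean log2 deviation was -0.34 in paclitaxel replicate 3 and between -0.20 and 0.24 in the vehicle libraries. Skeletal muscle markers summed to 10.1 to 14.5 CPM in paclitaxel and 11.4 to 16.1 CPM in vehicle libraries. Most of this sum was Myh7, at 9.05 ± 1.51 CPM in paclitaxel and 10.1 ± 1.47 CPM in vehicle libraries, followed by Actn3 at 1.73 ± 0.36 CPM in paclitaxel and 1.37 ± 0.579 CPM in vehicle libraries. The other 7 markers, Acta1 and Ckm among them, had low counts.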

How the data were processed

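RNA from lumbar spinal cord was made into mRNA libraries and sequenced on an Illumina HiSeq, per the labels' protocols. The deposited values are RSEM expected counts per gene; the submitters' processing notes name STAR, RSEM, edgeR 4.2.0 and the mm10 build. Which aligner and quantifier versions, annotation and strand setting were used is not given in the sources used here. The expected counts that the authors deposited were rounded to whole numbers, which touched 5.04% of values (not within 0.005 of a whole number). Of 24411 genes, 13287 passed edgeR's filterByExpr (minimum count 10, minimum total 15).

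Paclitaxel was compared with vehicle by edgeR 4.0.16 (R 4.3.3; TMM scaling, robust quasi-likelihood test, two-sided, no covariate), with Benjamini-Hochberg adjustment over all 13287 genes and a threshold of 0.05. CPM use TMM-scaled library sizes, and levels between genes were divided by the mean transcript length in GENCODE M21. Coordinates and promoters come from RefSeq (GRCm38.p6). Deviations are on log2 CPM with a prior count of 2. The common biological coefficient of variation was 8.23%, and replicates differed by more than counting noise (chi-square per degree of freedom 1.62 to 6.88), so none was counted as a duplicate.

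The members and the gene lists were chosen with earlier results of these data known. In each family the tested gene of highest mean CPM and the 2 of lowest p were named with every library's value. Up to 3 genes of lowest p per pathway list were named, some with every library's value and the others by level or fold change. Chrna4 and the choroid plexus list were added after values were seen. Alternatives were 3 other scalings, 2 other filters, DESeq2 1.42.0, limma-voom (limma 3.58.1) with and without sample weights, the likelihood ratio test, a replicate block, a GC content and length correction (loess span 0.4), and left-out libraries. The fit was tested on simulated data. Values of a few genes are not reported here.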

Additional observations from a re-analysis of the deposited data

Results flagged for a closer look

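Chrna2, a nicotinic subunit known from Renshaw cells, was at 8.69 CPM in paclitaxel replicate 2, while the other paclitaxel libraries lay between 3.52 and 4.37 CPM. The gap to the nearest library was 0.836 of the group's range, above Dixon's 95% critical value for a group of 5. It was the only such value among 58 groups examined (29 genes in each group of libraries), and chance alone marks about 1 in 20 groups.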

How the results depend on the processing

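Of the receptor genes, 0 passed the adjusted threshold under any of 22 alternatives. Over all genes the count was 1 with DESeq2 and with the likelihood ratio test (Klf4 in both, adjusted p = 0.00842 and 0.031) and 1 with the replicate block (Fos, adjusted p = 0.0189). The number of receptor genes at an unadjusted p under 0.05 was 2 with no filter (Htr2c and Chrna10, of which Chrna10 rests on 4 counts) and ran from 0 to 2 when single libraries were left out: 0 without paclitaxel replicate 1 or 3, and 2 without paclitaxel replicate 4 or 5 or vehicle replicate 5. The gene also changed where the count was 1: Htr2c was replaced by Chrna7 with the GC content and length correction (edgeR unadjusted p = 0.0454), without vehicle replicate 2 (0.0308) or 4 (0.0323), and without paclitaxel replicate 3 and vehicle replicate 4 together (0.0449). The median log2 fold change ran from -0.025 to 0.017 over left-out libraries. With the replicate block Htr2c was at 0.20 (edgeR adjusted p = 0.783); over all alternatives its adjusted p ran from 0.478 to 1. Same-numbered samples had correlated deviations of 0.0819, 0.143, -0.103, 0.00703 and 0.127, and 2 of 5 matched their own number best, so the numbers were not taken to pair the samples.

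Of 374 values of the 17 named genes, 344 kept their direction and 30 did not; 11 genes kept it throughout. Chrnb2 turned to 0.0046 (DESeq2 size factors), 0.0056 (upper quartile), 0.0025 (library totals), 0.0018 (at least 1 CPM in 5 libraries), 0.005 (DESeq2), 0.00076 (limma-voom), 0.00018 (likelihood ratio), 0.00028 (replicate block), 0.014 (GC content and length) and 0.035 (without paclitaxel replicate 3 and vehicle replicate 4 together), and ran from -0.022 to 0.021 over left-out libraries. Adra2a turned to 0.030 and Chrm2 to -0.056 with the GC content and length correction, and Chrm2 to -0.0083 with sample weights. Over left-out libraries Adra2a ran from -0.11 to 0.017, Hrh3 from -0.047 to 0.12, Chrm2 from -0.047 to 0.11, Chrna2 from -0.22 to 0.21 and Chrna4 from -0.037 to 0.043. The cause was not tested.

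Of the 53 genes 24 did not pass the filter on low counts, and the intervals of 9 of the 29 tested genes reached beyond a 1.5-fold change. These 9 included Htr2a and Drd2, at a mean of 12.1 and 9.64 CPM over all libraries. The interval of Htr4, at a mean of 3.69 CPM, stayed within that change. What widened the intervals was not tested.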
